A study of Homo sapiens with 6 samples.

Results

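The cyclin-dependent kinase (CDK) inhibitor genes were analysed in the castration-resistant human prostate cancer cell line C4-2. The 8 genes were chosen by their symbols from the 55765 gene symbols of the count files, and all 8 passed the filter on low counts that left 16835 genes. They are CDKN1A, CDKN1B and CDKN1C of the CIP/KIP family, CDKN2A, CDKN2B, CDKN2C and CDKN2D of the INK4 family, and CDKN3. RNA-seq was performed with 3 DMSO libraries (solvent control) and 3 SAL libraries (supraphysiological androgen level, 1 nM of the synthetic androgen R1881), each after 72 h of treatment and numbered 1 to 3 in both groups. Both groups are the same line, a subline of LNCaP, and both were grown in DMEM with fetal bovine serum. The study treats SAL as a growth-inhibiting and senescence-inducing condition. Its senescence staining was of spheroids treated for longer than these cells, and the rise was weaker in C4-2 than in LNCaP spheroids. The question here is how the genes that brake the cell cycle responded to SAL.

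CDK inhibitors hold back the kinases that drive the cell cycle. INK4 proteins bind CDK4 and CDK6 and keep the D cyclins from activating them, so that the retinoblastoma protein stays unphosphorylated and E2F factors stay silent. CIP/KIP proteins bind cyclin-CDK complexes more broadly and above all block CDK2 with cyclin E or A. CDKN3 is of another kind, a phosphatase that removes the activating phosphate from CDK2 and CDK1, and its mRNA is made mainly by dividing cells. Rises of CDKN1A and CDKN2A are widely used as markers of arrest and senescence, although much of the control of these proteins lies in their degradation, which RNA-seq does not measure.

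Between 7864471 and 12532355 reads were counted on genes per library, and between 6931042 and 9776990 after removal of rRNA genes. Levels are given as CPM (TMM-normalised counts relative to library depth), where 1 count is worth at most 0.137 CPM. SAL was compared with DMSO within replicate numbers by edgeR's quasi-likelihood test, since the paper's methods name a paired test. Same-numbered libraries of the 2 groups also deviated together from their group means. A Benjamini-Hochberg adjusted p below 0.05, taken over all genes tested, defined differentially expressed genes (DEGs). The androgen-induced gene KLK3 rose in all 3 pairs, with a log2 fold change (log2FC) of 1.21 (standard error (SE) 0.10, adjusted p = 3.33e-07). All 9 markers of luminal prostate epithelium were found, with at least 143 counts in every library. Of the markers of other cell types, KRT5, PTPRC, CD3E, CDH5 and COL1A2 had 0 counts in every library, and the summed level of each list was at most 10.8 CPM in DMSO and 9.65 CPM in SAL.

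By edgeR with the replicate block, 2 of the 8 CDK inhibitor genes were DEGs. CDKN1C, which encodes the CIP/KIP protein p57, rose about 2.83-fold from a very low level, and CDKN3 fell to 64.8% of its DMSO level. CDKN1C was not called by DESeq2 with the block (adjusted p = 0.0839), and a paired test with DESeq2 is what the paper's methods name. The senescence and arrest markers CDKN1A and CDKN2A were not among the DEGs, and neither were CDKN1B, CDKN2B, CDKN2C and CDKN2D. The 1 gene called higher and the 1 gene called lower compare with 11.5% of all genes tested called higher and 9.37% called lower, so the share of the 8 genes that responded was near that of all genes (20.8% in either direction). The median log2FC of the 8 genes was -0.09, against -0.0011 over all genes. In a fit without the replicate block, edgeR called 0 of the 8, with 0 at an unadjusted p under 0.05.

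In DMSO, CDKN3 had the highest level per length, 74.1 ± 44.1 CPM per kb of exon in the reference transcript (mean ± SD, n = 3 here and below). It was followed by CDKN1A with 21.5 ± 13.1, CDKN2C with 20.8 ± 6.58 and CDKN1B with 15.1 ± 5.63 CPM per kb, and these 3 levels did not differ beyond their spread across libraries. Within libraries, CDKN2C was above CDKN1B per kb in each of the 6, but below it in CPM in each. The order of these 2 genes thus rests on the transcript lengths used (0.995 and 2.411 kb). CDKN2A with 10.4 ± 5.68 and CDKN2D with 5.07 ± 1.07 CPM per kb came next. Their ranges across libraries overlapped too, but CDKN2A was above CDKN2D per kb within each library, narrowly in SAL replicate 2 (7.96 against 7.77). In CPM, CDKN2D was above CDKN2A in DMSO replicate 3 and SAL replicate 2, so this order rests on the lengths too. CDKN2B with 0.841 ± 0.0852 and CDKN1C with 0.656 ± 0.634 CPM per kb were the lowest, below CDKN2D in each of the 6 libraries. In SAL the order was the same except at its end, where CDKN1C at 1.82 ± 1.38 CPM per kb stood above CDKN2B at 1.22 ± 0.567, again within the spread. The lead of CDKN3 did not hold in replicate 2. There it had 33.5 CPM per kb beside 34.0 for CDKN1A in DMSO, and 16.8 beside 42.5 in SAL.

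**Figure D1:**
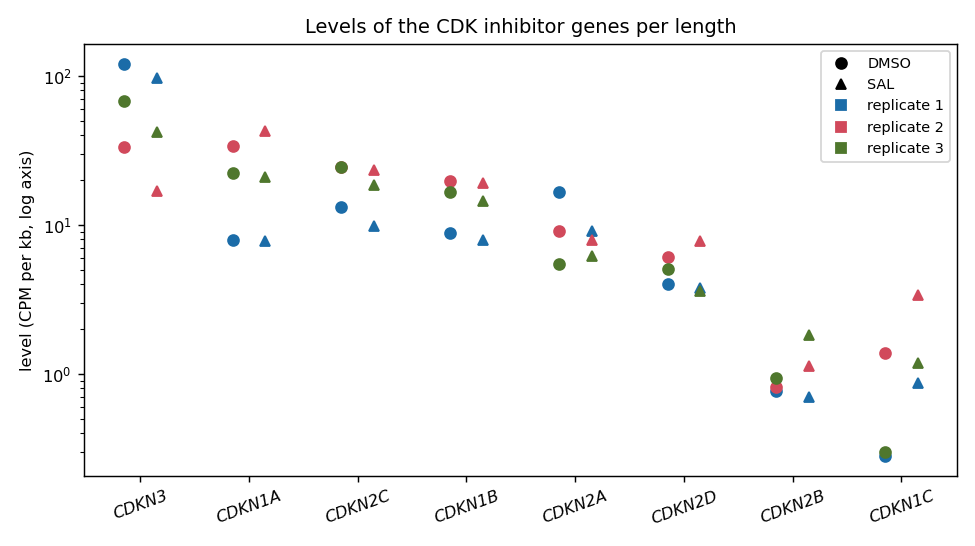
Level of each CDK inhibitor gene in CPM per kb of the reference transcript (log axis) in each library, with DMSO as circles, SAL as triangles and the replicate number as colour. CDKN3 spans 16.8 to 121 CPM per kb, while CDKN2B and CDKN1C lie below the other genes in each library.

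The promoters of CDKN3, the inhibitor gene that fell, and of CDKN1A, the arrest marker that was not called, are shown as examples. Whether their letters bear on these responses was not tested. Both sequences are RefSeq promoters of GRCh38.p14, from 250 bases before to 50 bases from the annotated start, on the plus strand at chr14:54396757-54397056 and chr6:36678464-36678763. Capitals mark matches on either strand to CCAAT, to TTTGAA (the cell cycle homology element, by which the DREAM complex and its activating counterpart time mitotic genes) and to GGGCGG (the SP1 core).
CDKN3: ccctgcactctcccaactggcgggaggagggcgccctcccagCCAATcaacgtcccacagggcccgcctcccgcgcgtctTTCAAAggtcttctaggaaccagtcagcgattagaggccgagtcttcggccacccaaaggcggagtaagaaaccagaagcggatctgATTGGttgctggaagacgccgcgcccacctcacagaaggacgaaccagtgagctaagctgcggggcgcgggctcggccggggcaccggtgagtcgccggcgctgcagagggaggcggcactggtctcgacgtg
CDKN1A: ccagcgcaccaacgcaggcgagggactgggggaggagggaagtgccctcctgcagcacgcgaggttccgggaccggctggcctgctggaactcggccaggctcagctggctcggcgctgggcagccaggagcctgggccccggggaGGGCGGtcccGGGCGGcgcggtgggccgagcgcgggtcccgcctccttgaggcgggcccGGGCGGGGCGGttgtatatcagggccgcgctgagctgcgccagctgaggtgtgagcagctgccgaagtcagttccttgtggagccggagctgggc
In CDKN3, the capitals are CCAAT at base -208, TTTGAA on the other strand at base -170 and CCAAT on the other strand at base -83 from the start. In CDKN1A they are 4 SP1 cores, of which the last 2 share a base. The table held 10 promoters for 7 of the members (CDKN1A, CDKN1B, CDKN2A, CDKN2B, CDKN2C, CDKN2D and CDKN3), and TTTGAA was found in 1 of the 10, that of CDKN3, against 15.2% of all 35116 promoters. CCAAT was found in 4 of the 10 (34.6% of all promoters) and GGGCGG in 7 (45.0%). The E2F core TTTNNCGC was found in 1 of these windows, that of CDKN2D (6.89%). These matches describe the letters of the windows and not bound sites.

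Among the CIP/KIP genes, CDKN1A encodes p21, the inhibitor best known for arrest after DNA damage, and lies on chromosome 6 (36644237 to 36655114 in GRCh37, the assembly of all gene positions here). Its levels in DMSO replicates 1, 2 and 3 were 16.8, 72.1 and 47.4 CPM, and in SAL 16.5, 90.0 and 44.2 CPM. The groups overlapped fully, and the levels of same-numbered libraries were close to each other in replicates 1 and 3. The highest DMSO library was 4.28-fold above the lowest, whereas the log2FC with SAL was 0.08 (SE 0.12, adjusted p = 0.675), with a 95% confidence interval of -0.17 to 0.33. The pairs changed by -0.03, 0.32 and -0.10, so that the sign of the fitted value came from replicate 2, and without replicate 2 it was -0.09. Replicate number held 98.9% of the sum of squares of its log2 CPM and treatment 0.116%. In GENCODE v44, which is newer than the annotation behind the counts, exons of CDKN1A and CDKN2C outside their reference transcripts overlap antisense RNAs over 146 and 617 bp. Neither antisense RNA was among the counted symbols under its name there. Whether the overlapping exons were part of the counts was not checked. If they were, counting without strand could not separate the antisense reads.

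CDKN1B encodes p27, which rises in resting cells and is removed by the SKP2 ubiquitin ligase when they enter the cycle. It had 21.4, 47.9 and 40.1 CPM in DMSO and 19.2, 46.3 and 34.9 CPM in SAL replicates 1, 2 and 3. It was slightly lower in SAL in all 3 pairs, by a log2FC of -0.13 (SE 0.11, 95% confidence interval -0.38 to 0.11, adjusted p = 0.463), which did not pass the test. As for CDKN1A, the differences between replicate numbers were larger than those between treatments, with replicate 1 the lowest and replicate 2 the highest in both groups.

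CDKN1C on chromosome 11 (2904443 to 2907005) encodes p57, a product of an imprinted gene that is linked to growth restraint and differentiation. Its raw counts were 4, 18 and 4 for DMSO and 12, 55 and 17 for SAL (replicates 1, 2 and 3), or 0.496, 2.46 and 0.534 CPM against 1.54, 6.03 and 2.09 CPM. Each SAL library was above its same-numbered DMSO library, but the groups overlapped because DMSO replicate 2 was above SAL replicates 1 and 3. The log2FC was 1.50 (SE 0.37, 95% confidence interval 0.71 to 2.29, adjusted p = 0.00874), with 1.26, 1.21 and 1.58 in the 3 pairs. In size this change was exceeded by 2.38% of the genes tested. Its mean level was above that of 12.8% of them, and treatment held 40.3% of its sum of squares, the largest share among the 8 genes. The call depended on the setting. The adjusted p was 0.0839 with DESeq2 and the block, 0.0520 without replicate 2 and 0.0888 without replicate 3, at log2FC values of 1.60, 1.76 and 1.38.

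Summed over CDKN1A, CDKN1B and CDKN1C, the CIP/KIP genes had 38.8, 122 and 88.1 CPM in DMSO and 37.3, 142 and 81.2 CPM in SAL replicates 1, 2 and 3. The sums of the pairs differed by -0.06, 0.22 and -0.12 on the log2 scale, in both directions. CDKN1C made up a small part of each sum.

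**Figure D2:**
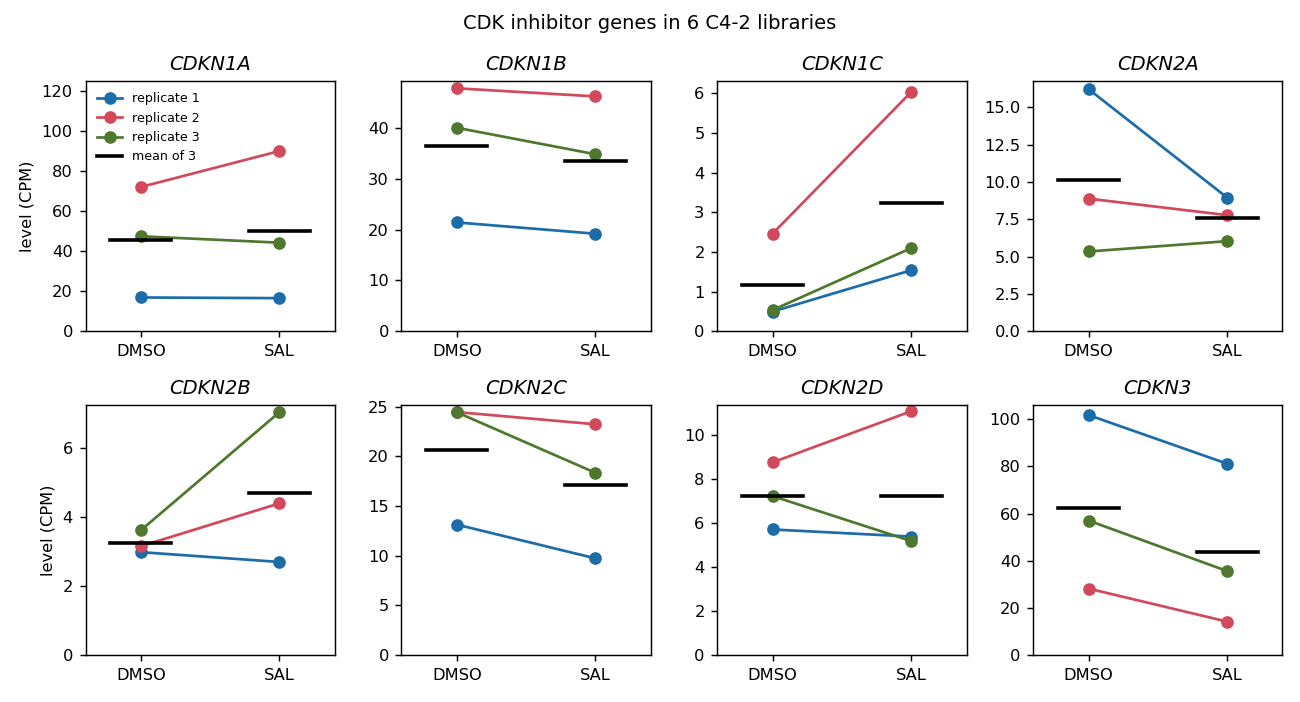
CPM of the 8 CDK inhibitor genes in the DMSO and SAL libraries (linear axes from 0, each gene on its own scale), with lines joining same-numbered libraries and black bars for the mean of 3 libraries. The lines of CDKN1C rise and those of CDKN3 fall in all 3 pairs, while CDKN1A is flat in replicates 1 and 3 and spread from 16.5 to 90.0 CPM by replicate number.

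None of the 4 INK4 genes was a DEG with edgeR and the block. None had an unadjusted p under 0.05 either, and DESeq2 with the block called 0 of them. CDKN2A on chromosome 9 (21967751 to 21995300), whose locus gives p16 and, from another first exon, the protein ARF, gave raw counts of 131, 65 and 40 for DMSO and 70, 71 and 49 for SAL (replicates 1, 2 and 3). Its levels were 16.2, 8.89 and 5.34 CPM in DMSO and 8.96, 7.78 and 6.04 CPM in SAL. The highest library was DMSO replicate 1, and the other 5 lay between 5.34 and 8.96 CPM. The log2FC was -0.35 (SE 0.22, 95% confidence interval -0.81 to 0.11, adjusted p = 0.294), with -0.84, -0.19 and 0.17 in the pairs, and it was -0.03 without replicate 1. The counts per symbol join the p16 and ARF transcripts, which therefore cannot be told apart. Some exons of CDKN2A, none of them in its reference transcript, overlap the antisense gene CDKN2B-AS1 over 593 bp. CDKN2B-AS1, a noncoding RNA with 8 to 37 counts per library, had a log2FC of -0.89 (SE 0.34, adjusted p = 0.0812).

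CDKN2B, the neighbour of CDKN2A on chromosome 9 (22002902 to 22009304), encodes p15, an inhibitor induced by TGF-beta. It had 24, 23 and 27 counts in DMSO and 21, 40 and 57 counts in SAL replicates 1, 2 and 3, or 2.97, 3.14 and 3.61 CPM against 2.69, 4.39 and 7.02 CPM. The DMSO libraries were nearly level, and the SAL libraries spread from below all of them to above them. The log2FC was 0.49 (SE 0.28, 95% confidence interval -0.11 to 1.08, adjusted p = 0.254), and it was 0.74 without replicate 1 (adjusted p = 0.0744) and 0.19 without replicate 3. The interval reaches a rise of 2.12-fold, so that a rise up to this size could not be told from no change at these counts.

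CDKN2C, which encodes p18 and lies on chromosome 1 (51426417 to 51440306), had 13.1, 24.5 and 24.5 CPM in DMSO and 9.73, 23.2 and 18.4 CPM in SAL replicates 1, 2 and 3, lower in SAL in all 3 pairs. The log2FC was -0.29 (SE 0.15, 95% confidence interval -0.61 to 0.02, adjusted p = 0.187) and did not pass the test. CDKN2D, which encodes p19, had 5.70, 8.75 and 7.22 CPM in DMSO and 5.38, 11.1 and 5.17 CPM in SAL. Its pairs went both ways, by -0.08, 0.33 and -0.46, and its log2FC of -0.04 (SE 0.22, adjusted p = 0.927) had a 95% confidence interval of -0.50 to 0.42.

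CDKN3 on chromosome 14 (54863567 to 54886936) had the highest mean level per length of the 8 genes and fell in all 3 pairs. It had 102, 28.2 and 57.1 CPM in DMSO and 81.2, 14.1 and 35.6 CPM in SAL replicates 1, 2 and 3. The groups overlapped, since SAL replicate 1 was above DMSO replicates 2 and 3, and within each group replicate 1 was the highest and replicate 2 the lowest. The log2FC was -0.63 (SE 0.12, 95% confidence interval -0.89 to -0.36, adjusted p = 0.00228), with -0.33, -0.98 and -0.68 in the pairs. DESeq2 with the block also called CDKN3 (adjusted p = 0.00306), and without replicate 1 the log2FC was -0.81. Without replicate 3 it was -0.62 and not past the threshold (adjusted p = 0.0643, edgeR with the block). In these bulk libraries, a smaller share of dividing cells and less CDKN3 RNA per dividing cell cannot be told apart.

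**Figure D3:**
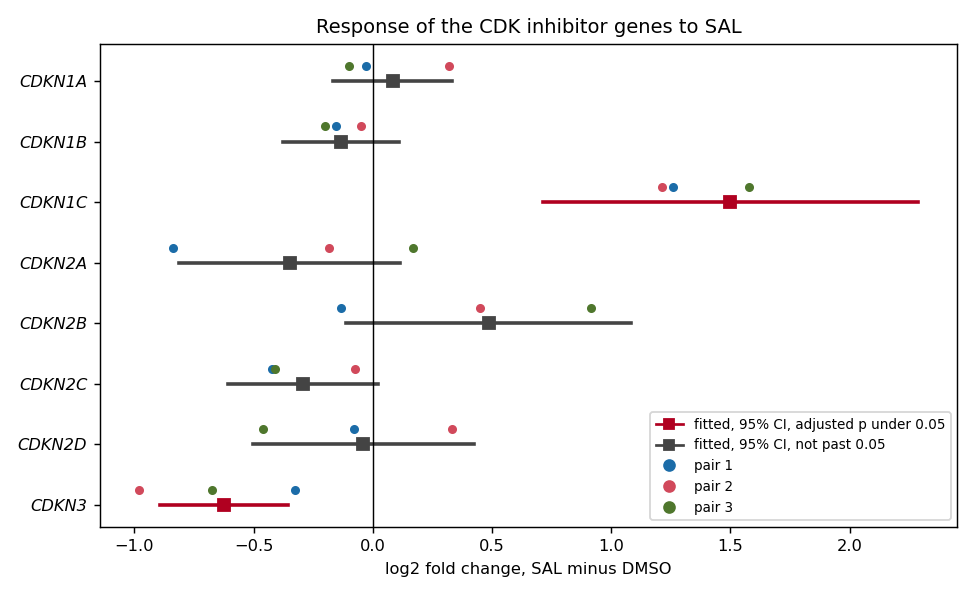
Log2 fold change (log2FC) of SAL against DMSO for each CDK inhibitor gene, with squares and bars for the fitted value and its 95% confidence interval and dots for the 3 pairs. The intervals of CDKN1C (0.71 to 2.29) and CDKN3 (-0.89 to -0.36) leave out 0 and those of the other 6 genes include it.

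Replicate number held a larger share of the sum of squares of log2 CPM than treatment did for each of the 8 genes. Its share was lowest for CDKN2B (53.8%, against 22.1% for treatment) and highest for CDKN1A (98.9%). For CDKN1C it was 59.1%, against 40.3% for treatment. The larger share was a trait of the whole series, since over all genes tested replicate number held 77.1% and treatment 16.8%. These shares are not like for like, since replicate number has 3 levels and treatment 2, which favours replicate number. In 7 of the 8 genes the 3 replicates had the same order in DMSO as in SAL, the exception being CDKN2D. The share of all genes with the same order was not counted. CDKN1A, CDKN1B, CDKN1C and CDKN2C were highest in replicate 2 and lowest in replicate 1, whereas CDKN3 had the reverse order. The levels of none of the 8 genes separated the 3 DMSO from the 3 SAL libraries (7.51% of all genes did so), and 4 of the 8 had the same direction in all 3 pairs (51.2% of all genes). The log2 CPM of each member was also compared with that of 9907 or 9908 named genes of at least 10 CPM. This was done over the 6 libraries, which form 3 pairs and share their replicate differences. The most similar genes were TMEM63A and EIF3B for CDKN1A (Pearson's r of 0.9997 and 0.9994) and PDIA3P and PDIA6 for CDKN1C (both 0.994). For CDKN2C they were TAP2 and AEN (0.998 and 0.997), and for CDKN3 EIF5 and BRDT (both 0.999). They were picked as the highest of so many genes, which by itself favours values near 1. These values describe the order and spread of the replicates at least as much as the response to SAL.

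The genes that the inhibitors act on, or that act on them, were taken from 6 lists with 85 genes, of which 81 were tested. Of these, 29 were down-regulated (35.8%, against 9.37% of all genes) and 6 up-regulated (7.41%, against 11.5%), with a median log2FC of -0.13. The lists were chosen with earlier results of these data known, and their shares were not tested against those of all genes. Without replicate 3 the down-regulated genes numbered 10, and with blocked DESeq2 17. Among the targets of the INK4 proteins, the catalytic partners went in opposite directions. CDK6 had 12.3, 30.1 and 35.9 CPM in DMSO and 29.2, 54.1 and 98.9 CPM in SAL replicates 1, 2 and 3, a rise of 1.19 on the log2 scale (SE 0.13, adjusted p = 9.75e-06) that every alternative with the block also called. CDK4 had 57.9, 75.5 and 39.6 CPM in DMSO and 39.4, 57.6 and 33.5 CPM in SAL, a log2FC of -0.40 (SE 0.11, adjusted p = 0.0145). CDK4 was lower in SAL in all 3 pairs, but its call was lost with blocked DESeq2 (adjusted p = 0.0955) and without replicate 3 (adjusted p = 0.104). The D cyclins CCND1 and CCND3 had log2FC values of 0.16 and 0.02 (adjusted p = 0.237 and adjusted p = 0.966), and CCND2 was too low to be tested.

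Of the 7 targets of the CIP/KIP proteins and of CDKN3 that were tested, 6 were down-regulated and 0 up-regulated, with a median log2FC of -0.57, and the gene not called was CCNE1 (0.02, adjusted p = 0.949). The cyclins of S phase and mitosis led the list, with log2FC values of -1.03 for CCNA2 (adjusted p = 3.88e-06), -0.80 for CCNB1 (adjusted p = 1.54e-05) and -0.67 for CCNB2 (adjusted p = 0.000105). The kinase CDK2 had 53.6, 43.6 and 34.1 CPM in DMSO and 40.0, 29.9 and 24.6 CPM in SAL replicates 1, 2 and 3. CDK1, the mitotic kinase, had 718, 342 and 685 CPM in DMSO and 589, 230 and 382 CPM in SAL. Both kinases were lower in SAL in each pair, with log2FC values of -0.48 and -0.57 (adjusted p = 0.00563 and adjusted p = 0.00154). Neither was past the threshold without replicate 3 (adjusted p = 0.105 for CDK2 and 0.183 for CDK1, edgeR with the block), and 3 of the 7 genes were then down-regulated.

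Of the 13 pocket proteins and E2F factors, 6 were down-regulated and 0 up-regulated, with a median log2FC of -0.39. RBL1, which encodes the pocket protein p107, fell by 0.94 on the log2 scale (adjusted p = 1.07e-05), while RB1 and RBL2 stood at 0.02 and 0.0013 (adjusted p = 0.915 and adjusted p = 0.996). E2F7 and E2F8, the E2F repressors, had log2FC values of -0.84 and -0.92 (adjusted p = 0.000103 and adjusted p = 0.00112), and E2F1, an activator, of -0.68 (adjusted p = 0.00187). These 4 falls were called in every alternative with the block.

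Factors that degrade CIP/KIP proteins were down-regulated in 4 of 14 cases and up-regulated in 0, with a median log2FC of -0.03. SKP2, the receptor that marks p27 for destruction, fell from 86.3 ± 15.3 to 51.9 ± 11.9 CPM, a log2FC of -0.74 (SE 0.10, adjusted p = 5.64e-05). Its cofactor CKS1B had a log2FC of -0.64 at 7.98 ± 4.29 CPM in DMSO (adjusted p = 0.0485), a call that 5 of the 9 alternatives with the block also made. It was lost with blocked DESeq2 (adjusted p = 0.324), with no filter on low counts (adjusted p = 0.0608), without replicate 1 (adjusted p = 0.197) and without replicate 3 (adjusted p = 0.302). CDC20 and DTL, which direct p21 to destruction in mitosis and in S phase, had log2FC values of -0.85 and -0.76 (adjusted p = 0.000157 and adjusted p = 0.000237). The remaining ligase subunits, among them CUL1, SKP1, CUL4A and DDB1, were not DEGs, with log2FC values of -0.21, 0.20, -0.06 and 0.16.

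Of 26 transcription factors and Polycomb proteins that act on inhibitor genes, 2 were up-regulated and 4 down-regulated, with a median log2FC of -0.01. KLF4, which can activate CDKN1A, rose by 1.48 on the log2 scale (SE 0.19, adjusted p = 3.47e-05). FOXO3, an activator of CDKN1B, rose by 0.70 (SE 0.11, adjusted p = 0.000460). Their usual targets CDKN1A and CDKN1B were not called, as given above. SMAD3, which carries the TGF-beta signal to CDKN2B, had a log2FC of -0.75 (adjusted p = 0.0221) and was not past the threshold without replicate 3 (adjusted p = 0.424), where 0 genes of this list were called lower. DESeq2 with the block also called 0 of them lower.

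Of the 17 other genes that restrain or activate CDKs, 8 were down-regulated and 3 up-regulated, with a median log2FC of -0.36. GADD45G, a stress gene whose product can inhibit CDK1, rose from 5.27 ± 0.639 to 20.4 ± 10.8 CPM, a log2FC of 1.87 (SE 0.24, adjusted p = 9.74e-05). WEE1, the kinase that holds CDK1 and CDK2 inactive, and CCNH, the cyclin of the CDK-activating kinase, had log2FC values of -0.68 and -0.42 (adjusted p = 0.00111 and adjusted p = 0.00395). Neither was past the threshold without replicate 3 (adjusted p = 0.0647 and adjusted p = 0.152). CDK2AP2, related to the CDK2-binding protein CDK2AP1, had a log2FC of 0.67 (adjusted p = 0.00360), with adjusted p = 0.0643 without replicate 2 and adjusted p = 0.0885 without replicate 3. The CDC25 phosphatases, which remove the mark that WEE1 sets, had log2FC values of -0.53 for CDC25A, -0.51 for CDC25B and -0.51 for CDC25C and were DEGs. Without replicate 3, 0 genes of this list were called lower, against 8 with all libraries, and DESeq2 with the block called 3 lower. The call of CDC25C was also lost without replicate 2 (adjusted p = 0.164) and with blocked DESeq2 (adjusted p = 0.196), and that of CDC25A with blocked DESeq2 (adjusted p = 0.0718).

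**Figure D4:**
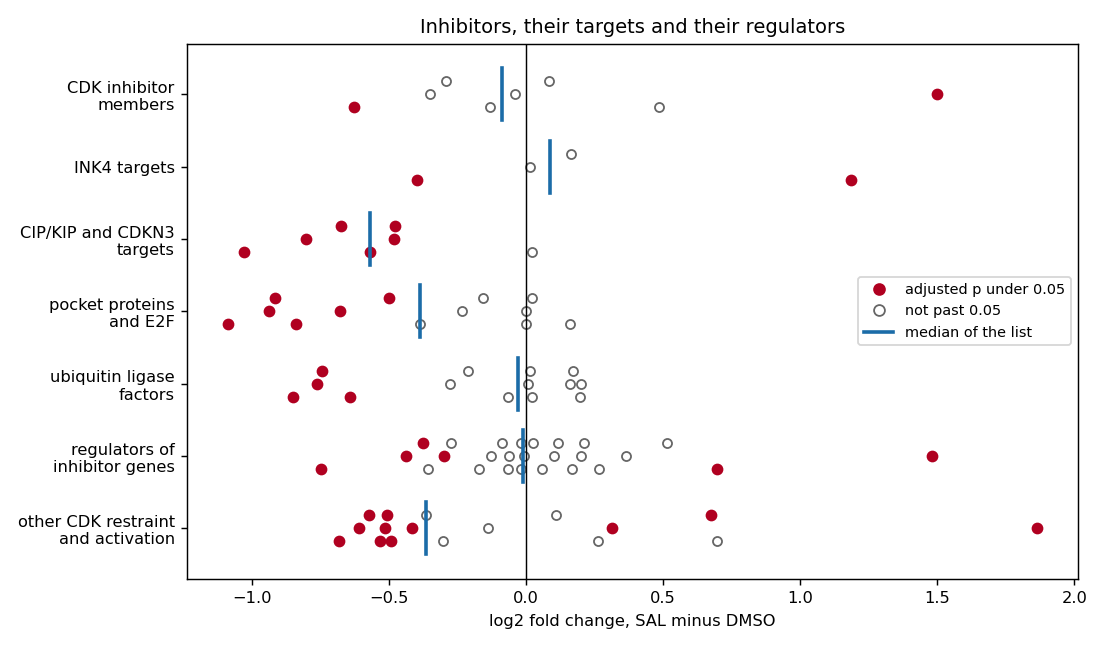
Log2 fold change (log2FC) of SAL against DMSO for the 8 CDK inhibitor genes and the tested genes of 6 lists, with filled dots for DEGs and a blue bar for the median of each list. The medians run from -0.57 for the targets of CIP/KIP proteins and CDKN3 to 0.09 for the INK4 targets, and CDKN1C at 1.50 stands apart from the other inhibitor genes.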

How the data were processed

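The C4-2 series used here comprised 3 DMSO libraries and 3 libraries of cells given 1 nM R1881 for 72 h. After trimming, the authors aligned read 1 to hg19 (tophat 2.1.0) and ran htseq-count 0.11.2 on gencode exons with strand ignored. The deposited files hold the resulting raw counts per gene symbol. The tally entries that htseq-count adds for unassigned reads were not used in library sizes or tests; reads in no gene made up 26.7% to 51.1% of the uniquely mapped reads. Removal of 523 rRNA symbols, as in the methods of the paper, took away 11.9% to 27.8% of the gene counts.

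Counts were filtered with filterByExpr, normalized with TMM and tested with the quasi-likelihood test of edgeR 4.0.16 (robust estimation, R 4.3.3) blocked by replicate number, since the methods name a paired test. Same-numbered libraries correlated in their deviations from the mean of their group (0.89, 0.86 and 0.74). The SE of a log2FC was taken as its absolute value over the square root of F, and the change of a pair as the log2 CPM of SAL minus that of DMSO (prior count 2). Whether the replicates came from separate cultures is known from the paper's statement of independent repeats and not from the labels.

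Levels per kb used the MANE Select transcript of GENCODE v44 on GRCh37 in place of the older annotation behind the counts. Promoters came from RefSeq (GRCh38.p14). Protein sequences were not analysed here. In simulated data with 16258 genes, 71.7% of 92 genes changed by 1 on the log2 scale and 58.2% of 91 changed by 0.7 were called, and 7.03% of the calls were unchanged genes. Only 200 genes were given a change before filtering, a smaller share than the 20.8% of genes called in the real data. The adjustment of p depends on this share, so these rates may not carry over to the real fit.

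The members and lists were chosen with earlier results of these data known. Named genes were the members, up to 4 called genes of each list with the smallest adjusted p (others, such as CCND1, RB1, CUL1 and the CDC25 genes, were named after their values were seen), the kinases CDK1, CDK2, CDK4 and CDK6, KLK3, the genes most like a member over the libraries, and genes that overlap a member. Some items of these lists are not reported here. The alternatives were DESeq2 1.42.0 with the block, its size factors in edgeR, a fit without the block, no filter, a minimum of 10 counts per library, the rRNA genes retained, the mitochondrial genes taken out and each replicate number left out. Precision is limited by the number of libraries, 6 in all.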

Additional observations from a re-analysis of the deposited data

How the results depend on the processing

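No alternative called any of CDKN1A, CDKN1B, CDKN2A, CDKN2B, CDKN2C and CDKN2D. Where the direction of one of these turned, it was not called on either side: CDKN1A ranged from a log2FC of -0.087 (without replicate 2) to 0.17 over the 3 fits that each left out 1 replicate number, and CDKN2D from -0.30 to 0.15 (without replicate 3), with 0.00046 for CDKN2D without the replicate block. CDKN3 was called in 8 of 10 alternatives and CDKN1C in 5 of 9.

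Without the replicate block, edgeR gave 18 up-regulated and 3 down-regulated genes in all, 0 and 0 of the inhibitor genes and 0 and 0 of the listed network genes, with an unadjusted p under 0.05 for 0 inhibitor genes, 2 network genes and 654 genes in all. DESeq2 with the block gave 842 down-regulated genes in all and 17 in the network lists, and 0 inhibitor genes up-regulated, CDKN3 still being called. With at least 10 counts required in every library, 0 inhibitor genes were up-regulated, because CDKN1C was no longer tested.

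Leaving out 1 replicate number at a time gave 0 to 1 up-regulated and 0 to 1 down-regulated inhibitor genes. In the network lists it gave 4 to 5 up-regulated and 10 to 29 down-regulated genes, and in all 750 to 2443 up-regulated and 483 to 1955 down-regulated genes. The lowest of these counts were those without replicate 3, and the cause was not tested. The scaling by DESeq2's size factors changed no call of an inhibitor gene. The counts of CDKN1C and CDKN2B, at most 57 per library, limit what can be said of both.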
